A study of Homo sapiens with 60 samples.

Results

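The genes described here encode subunits of the proteasome and the factors that build it, open it or switch on its genes. They were chosen by symbol, without the use of any measured value: every gene whose name begins PSMA, PSMB, PSMC, PSMD or PSME and ends in a number, apart from 3 symbols the rule leaves out, together with NFE2L1 and POMP. The rule found 36 of the 19775 genes with a probe set carrying a single symbol. By role they were 7 alpha and 7 constitutive beta subunits of the 20S core, the inducible beta subunit PSMB10, 5 ATPases and 8 other subunits of the 19S regulatory particle, 4 assembly chaperones, 3 activators and 1 transcription factor. They were covered by 71 probe sets, and each gene was read from its probe set with the highest mean, which for 14 genes was the sole choice. PSMA6 and PSME2 lay on probe sets carrying a pair of symbols and were left out, and PSMC5, PSMD7 and PSMD13 were not analysed here.

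The proteasome degrades proteins tagged with ubiquitin. In its 20S core, beta rings that carry the catalytic subunits PSMB5, PSMB6 and PSMB7 sit between outer alpha rings that gate the entrance. The 19S particle binds and unfolds substrates with its ring of PSMC ATPases and removes ubiquitin through PSMD14, while PSME activators open the core without ubiquitin. NFE2L1 is the transcription factor that raises proteasome genes together when proteasome activity falls, through antioxidant response elements in their promoters, and POMP is the chaperone that guides the assembly of the core. The kinase complex mTORC1, the target of rapamycin, promotes protein synthesis and is known to influence the levels of proteasome genes.

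The 60 arrays came from 3 human mammary lines. HB4a is a normal breast epithelial line, C5.2 is HB4a carrying a full-length HER-2 cDNA, and SKBR3 is a mammary adenocarcinoma line that overexpresses HER-2, the receptor encoded by ERBB2. Each line was given vehicle (DMSO), 30 nM doxorubicin (a DNA intercalator and topoisomerase poison), 20 nM rapamycin, or both drugs, with 5 arrays in each of the 12 groups from independent experiments numbered 1, 2, 3, 4 and 6. No treatment time was given, the labels do not say how many clones C5.2 represents, and the SKBR3 medium lacked the insulin and hydrocortisone used for the other lines, so that line and medium cannot be told apart. Values are log2 signals, differences are log2 differences with the standard error (SE) of limma's linear model, and a gene is called higher or lower where the Benjamini-Hochberg adjusted p over all genes tested was below 0.05. Within a line the fit used 20 arrays, and a gene was tested where its signal passed 5 on at least 5 of them. PSMA8, known mainly from testis, had a mean of 0.24 over the 60 arrays and was tested nowhere, and PSMB10 passed 5 on 2 C5.2 arrays only, which left 35 tested genes in HB4a and SKBR3 and 34 in C5.2.

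ERBB2 had a median of 6.86 in HB4a, 12.13 in C5.2 and 11.62 in SKBR3. Keratins KRT7, KRT8 and KRT18 were well above log2 5 in all 3 lines. EPCAM had medians of 8.39, 6.18 and 9.54 in HB4a, C5.2 and SKBR3 and fell to 4.58 on the lowest C5.2 array. CDH1, an epithelial cadherin, had medians of 9.28, 5.61 and 0.40 but reached 5.06 on the highest SKBR3 array. The reason for that value was not tested. Of 3 fibroblast genes, PDGFRA and LUM had medians below 1 in every line and DCN medians of 6.75, 5.35 and 1.30. Some arrays stood apart from their groups: by the mean correlation with the other arrays of the group, the lowest were HB4a rapamycin 1 (0.91), HB4a with both drugs 1 (0.93) and C5.2 with both drugs 2 (0.94). Counts without a wider set taken from earlier results of these data, namely HB4a experiment 1 and rapamycin 4, C5.2 experiment 2, SKBR3 experiment 1 and SKBR3 vehicle 3, are given where they differ by more than 1.5 times. Of these 14 arrays 8 had the lowest mean correlation of their group, but SKBR3 vehicle 3, at 0.98, had the highest of its own.

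**Figure D1:**
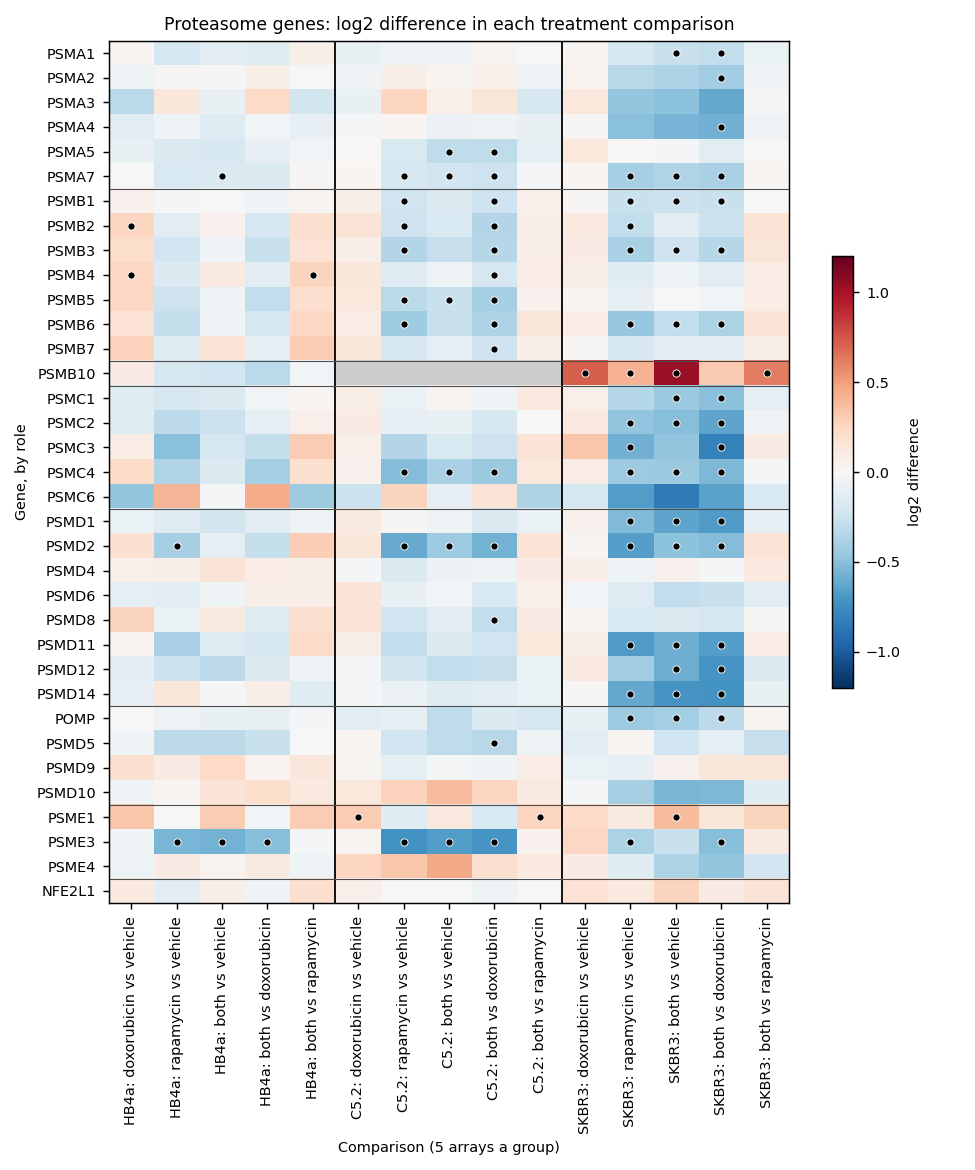
Log2 differences of the tested proteasome genes, grouped by role, in each treatment comparison of the 3 lines; the colour scale gives the difference, black dots mark genes called at an adjusted p below 0.05, and grey cells were not tested. Lower values gather in the rapamycin comparisons, most of all in SKBR3, where 14 of 35 genes were called lower against vehicle.

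Rapamycin alone lowered 14 of the 35 tested proteasome genes in SKBR3 and raised 1, PSMB10, with a median difference of -0.34 against -0.03 over all 5977 genes tested. Lower calls made up 10.8% of all genes tested and higher calls 7.48%. The lowered genes came from every layer of the particle: 1 of 6 alpha subunits, 4 of 7 constitutive beta subunits, 3 of 5 ATPases, 4 of 8 other 19S subunits, 1 of 4 assembly chaperones and 1 of 3 activators. Of the 35 genes, 31 had a difference below 0. Blocking on the experiment number gave 24 lower and 1 higher, beside 41.8% of all genes called in either direction. Without the wider set of arrays 8 were called, each of them lower, and with SKBR3 vehicle 3 kept in, an alternative chosen after seeing the data, 12 were lower and 1 higher. The arrays read bulk RNA, in which fewer cells with a transcript and less of it per cell cannot be told apart.

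The largest falls in SKBR3 were in the 19S particle. PSMD2, a scaffold subunit of the 19S base, read 8.76, 8.87, 8.90, 8.59 and 8.78 in vehicle (experiments 1, 2, 3, 4 and 6, the order used throughout) and 8.19, 8.09, 8.16, 8.17 and 8.01 in rapamycin. Every rapamycin array lay below every vehicle array, and the difference was -0.66 (SE 0.07, adjusted p = 9.01e-07, limma). PSMD11, a subunit of the 19S lid, read 7.18, 6.64, 6.93, 6.54 and 6.74 in vehicle and 6.30, 6.01, 6.07, 6.31 and 5.94 in rapamycin, again with no overlap (difference -0.68, SE 0.13, adjusted p = 0.00103, limma). PSMD14, the deubiquitinase of the lid, read 8.10, 7.40, 7.75, 7.86 and 7.54 in vehicle and 7.19, 7.12, 7.07, 7.37 and 6.85 in rapamycin. Its groups did not overlap either, with a difference of -0.61 (SE 0.16, adjusted p = 0.00861, limma), which was no longer called without the wider set (adjusted p = 0.0592) but was with SKBR3 vehicle 3 kept (adjusted p = 0.0205). Among the ATPases PSMC2, PSMC3 and PSMC4 fell by 0.47, 0.57 and 0.43.

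In the 20S core of SKBR3 rapamycin lowered 1 of the 3 catalytic subunits. PSMB6, which carries the caspase-like site, read 8.54, 8.44, 8.39, 8.22 and 8.43 in vehicle and 8.10, 7.82, 7.93, 7.88 and 8.04 in rapamycin. The groups did not overlap and PSMB6 was lower by a log2 difference of -0.45 (SE 0.09, adjusted p = 8.49e-04, limma). PSMB5, with the chymotrypsin-like site, differed by -0.10 (SE 0.07, adjusted p = 0.364), and PSMB7, with the trypsin-like site, by -0.20 (SE 0.08, adjusted p = 0.0723), neither of which passed the limma test. A p that misses the threshold does not show that a level stayed the same, and the differences between the 3 subunits were not tested. The non-catalytic beta subunits PSMB1, PSMB2 and PSMB3 fell by 0.27, 0.30 and 0.39, and PSMA7 of the alpha ring by 0.40. POMP, the core's assembly chaperone, read 9.52, 9.31, 9.46, 9.39 and 9.37 in vehicle and 9.10, 9.0, 8.88, 9.08 and 8.80 in rapamycin. All 5 rapamycin arrays lay below all 5 vehicle arrays (difference -0.44, SE 0.08, adjusted p = 2.99e-04, limma).

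In C5.2 rapamycin lowered 9 of 34 tested proteasome genes and 26 of 34 had a difference below 0, with a median of -0.16 against -0.08 over all genes. Lower calls made up 14.6% of the 6292 genes tested. The calls gathered in the beta ring, with 5 of 7 lowered (PSMB1, PSMB2, PSMB3, PSMB5 and PSMB6), beside PSMA7, PSMC4, PSMD2 and PSME3. PSMB5 read 9.46, 9.72, 9.49, 9.51 and 9.63 in vehicle and 9.20, 9.31, 9.18, 9.14 and 9.36 in rapamycin, with no overlap (difference -0.33, SE 0.07, adjusted p = 0.00411, limma). PSMB6 read 9.34, 9.45, 9.12, 9.26 and 9.34 in vehicle and 8.95, 9.09, 8.71, 8.75 and 8.89 in rapamycin, also apart (difference -0.43, SE 0.10, adjusted p = 0.00807), although quantile normalization ended the call (adjusted p = 0.0603). PSMC4, an ATPase of the 19S base, went from 7.38, 7.58, 7.45, 7.60 and 7.65 to 6.94, 7.10, 7.0, 6.83 and 7.21, with no overlap (difference -0.52, SE 0.12, adjusted p = 0.00730). PSMB7 and POMP, at -0.19 (SE 0.07) and -0.11 (SE 0.13), did not pass the limma test. Blocked on experiment, 18 genes were called, each of them lower, beside 44.2% of all genes called in either direction. Quantile normalization left 5, beside 11.6% of all genes.

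In HB4a rapamycin lowered 2 of 35 tested proteasome genes, PSME3 and PSMD2, against lower calls for 1.10% of all 6167 genes tested. Of the 35, 26 had a difference below 0, with a median of -0.16 against 0.01 over all genes. The catalytic subunits PSMB5, PSMB6 and PSMB7 differed by -0.25 (SE 0.10), -0.29 (SE 0.08) and -0.15 (SE 0.10), and POMP by -0.06 (SE 0.14), with none of these past the limma threshold. Their adjusted p were 0.228, 0.0607, 0.50 and 0.897. The experiment block called 8 genes, each of them lower, namely PSMA7, PSMB3, PSMB6, PSMC4, PSMD2, PSMD11, PSMD12 and PSME3. It called 16.3% of all genes in either direction. Leaving out rapamycin 2 gave 4 calls, leaving out vehicle 6 or the wider set gave 1, and quantile normalization gave 4. All-gene calls were 2.88% without the wider set and 3.93% with quantile normalization.

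PSME3 and PSMD2 were lowered by rapamycin alone in all 3 lines. PSME3, which encodes the nuclear activator PA28-gamma, read 6.95, 7.21, 6.66, 7.12 and 6.85 in HB4a vehicle and 6.21, 6.66, 6.31, 6.44 and 6.43 in HB4a rapamycin. The highest rapamycin array fell just short of the lowest vehicle array (difference -0.55, SE 0.12, adjusted p = 0.0120, limma). In C5.2 it read 6.85, 7.07, 6.82, 6.88 and 6.95 against 6.28, 6.20, 5.91, 6.16 and 6.38, and in SKBR3 6.06, 5.73, 5.91, 5.77 and 5.75 against 5.69, 5.19, 5.54, 5.51 and 5.40. The groups stayed apart in both lines, with differences of -0.73 (SE 0.10, adjusted p = 1.65e-04) and -0.38 (SE 0.10, adjusted p = 0.0131). PSMD2 read 8.68, 8.62, 8.89, 8.91 and 9.0 in HB4a vehicle and 8.16, 8.46, 8.41, 8.54 and 8.52 in HB4a rapamycin (difference -0.40, SE 0.09, adjusted p = 0.0167). In C5.2 it went from 8.40, 8.47, 8.09, 8.27 and 8.41 to 7.72, 7.80, 7.42, 7.75 and 7.95 (difference -0.60, SE 0.10, adjusted p = 6.31e-04), and in neither line did the PSMD2 groups overlap. The remaining 3 probe sets of PSME3 were also lower with rapamycin in each line, by -0.18 to -0.75, whereas PSMD2 has a single probe set.

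In HB4a both calls depended on the arrays in the fit. PSME3 there was no longer called without the wider set (adjusted p = 0.0704) or in a fit of only the arrays compared (adjusted p = 0.0597). PSMD2 lost its call in a fit of only the arrays compared (adjusted p = 0.0953) and without vehicle 6 (adjusted p = 0.0597). The GAPDH 3′ minus 5′ signal, a sign of RNA quality, ran from 0.23 to 1.67 on the HB4a rapamycin arrays, with a median of 0.27. In HB4a vehicle it ran from 0.20 to 0.36. The part of RNA quality in the HB4a differences was not tested.

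**Figure D2:**
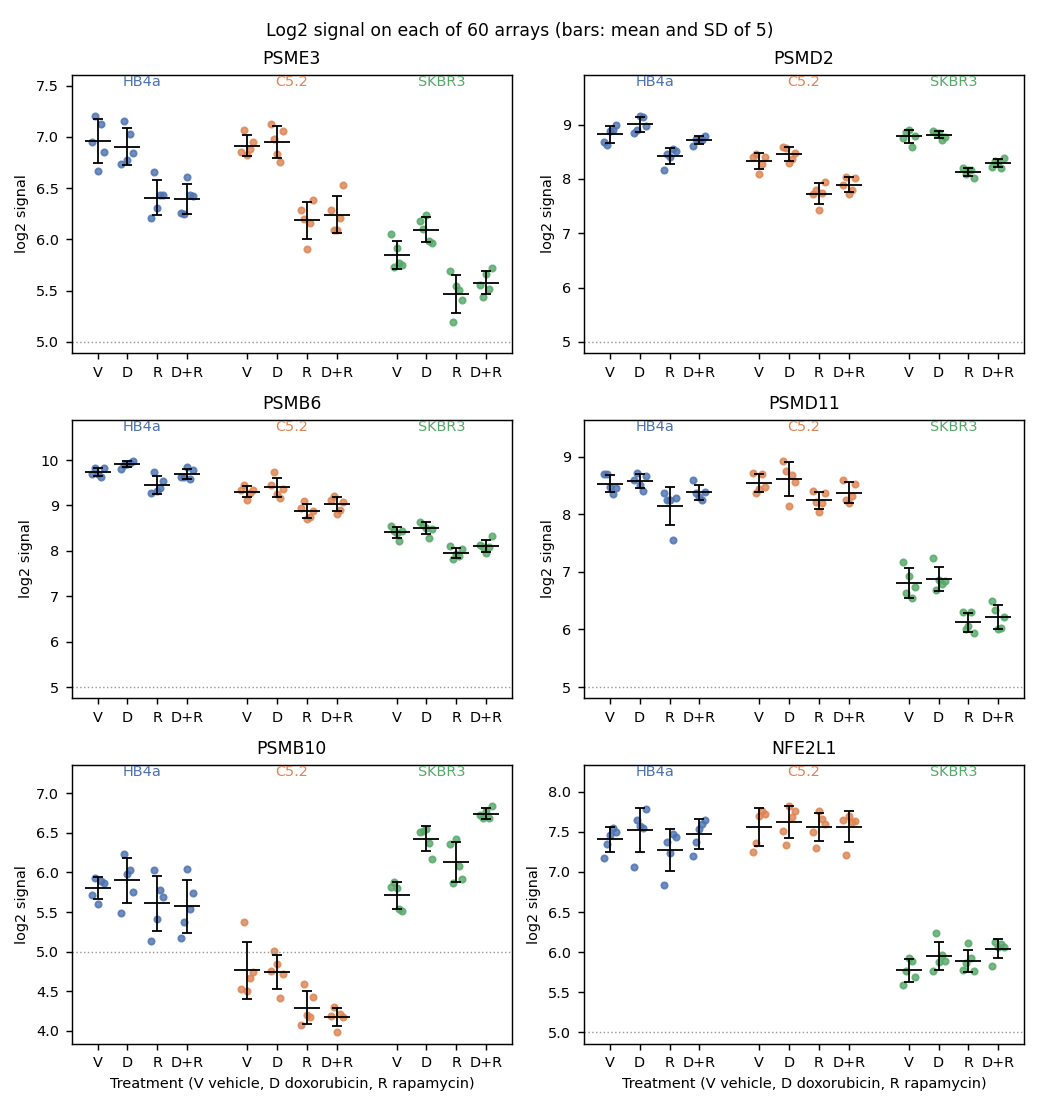
Log2 signal of single arrays for PSME3, PSMD2, PSMB6, PSMD11, PSMB10 and NFE2L1 under vehicle (V), doxorubicin (D), rapamycin (R) and both drugs (D+R) in each line; points are arrays, bars the mean and SD of 5 arrays, and the dotted line log2 5. PSME3 and PSMD2 arrays given rapamycin alone sit below the vehicle arrays in all 3 lines. PSMB10 rises in SKBR3, where vehicle arrays lie between 5.52 and 5.88 and arrays given both drugs between 6.68 and 6.84.

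Rapamycin added to doxorubicin is compared on arrays that share none with rapamycin against vehicle, although the experiment numbers are the same. In SKBR3 both drugs against doxorubicin gave 18 of 35 proteasome genes lower, with a median of -0.38 against -0.07 over all genes and 14.6% of all genes called lower. The experiment block called 27 lower and 1 higher, beside 49.6% of all genes called in either direction. The lowered genes were 4 of 6 alpha subunits, 3 of 7 beta subunits, 4 of 5 ATPases, 5 of 8 other 19S subunits, POMP and PSME3. PSMC3, an ATPase of the 19S base, read 7.99, 7.33, 7.86, 7.75 and 7.71 with doxorubicin and 7.0, 6.80, 6.94, 6.71 and 7.14 with both drugs. The groups did not overlap, and the difference of -0.81 (SE 0.17, adjusted p = 0.00230, limma) was the largest among the proteasome genes in that comparison. PSMD14 and PSMD1, a large scaffold subunit of the 19S base, were also apart, at -0.72 (SE 0.16) and -0.68 (SE 0.18). PSMB6 and POMP were lower by -0.38 (SE 0.09) and -0.31 (SE 0.08), while PSMB5 and PSMB7, at -0.04 and -0.14, did not pass the limma test. POMP was not called from the mean of all its probe sets (adjusted p = 0.246). The GAPDH 3′ minus 5′ signal, a sign of RNA quality, was 0.54 to 0.75 on the SKBR3 arrays with both drugs and 0.29 to 0.50 with doxorubicin; its part in these differences was not tested.

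In C5.2 both drugs against doxorubicin lowered 14 of 34 proteasome genes, beside 11.8% of all genes called lower, with a median of -0.20 against -0.09. All 7 constitutive beta subunits were among them, with PSMB5 at -0.40 (SE 0.07, adjusted p = 0.00175), PSMB6 at -0.37 (SE 0.10, adjusted p = 0.0226) and PSMB7 at -0.25 (SE 0.07, adjusted p = 0.0294). PSMB5 read 9.71, 9.81, 9.64, 9.53 and 9.77 with doxorubicin and 9.35, 9.25, 9.23, 9.19 and 9.45 with both drugs, without overlap, whereas PSMB6 and PSMB7 overlapped. PSMB7 was called in no fit without C5.2 array 3 or 4 given both drugs or doxorubicin 1, 2 or 6 (adjusted p = 0.0596 to 0.0844), and PSMB6 in none without the first 4 of these (adjusted p = 0.0539 to 0.0730). Quantile normalization and a fit of only the arrays compared also ended both calls, and for PSMB7 so did median centring, the mean of all probe sets and the absence of a filter (adjusted p = 0.0705 to 0.320 over these 5). The count depended on single arrays: it was 7 without C5.2 array 3 or array 4 given both drugs, 6 without doxorubicin 1, and 9 without doxorubicin 2 or doxorubicin 6. A fit of only the arrays compared, and quantile normalization, each left 5, and the fit with no filter left 8. These 3 fits called 6.64%, 7.3% and 3.09% of all genes in either direction. In HB4a the same comparison lowered 1 gene, PSME3, beside 1.43% of all genes. PSME3 read 6.73, 7.15, 6.77, 7.03 and 6.84 with doxorubicin and 6.26, 6.25, 6.61, 6.43 and 6.42 with both drugs (difference -0.51, SE 0.12, adjusted p = 0.0232, limma), with no overlap. The call was lost without any 1 of the HB4a arrays 1, 2 and 4 given both drugs or doxorubicin 2 and 4, with no filter (adjusted p = 0.0541) and from the mean of all probe sets (adjusted p = 0.104).

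The genes lowered by rapamycin in the absence and in the presence of doxorubicin can be set side by side within a line. In SKBR3 13 proteasome genes were lowered in both comparisons, 92.9% of the 14 and 72.2% of the 18, and over all genes tested 546 were, 84.3% of 648 and 62.5% of 874. In C5.2 9 were shared, 100% of the 9 and 64.3% of the 14, compared with 61.6% of 919 and 76.2% of 743 over all genes. In HB4a PSME3 was the 1 shared gene, 50% of the 2 and 100% of the 1, compared with 69.1% of 68 and 53.4% of 88. Across the tested proteasome genes the differences of the 2 comparisons correlated with r of 0.90 in HB4a, 0.95 in C5.2 and 0.90 in SKBR3 over 35, 34 and 35 genes. Over all 6167, 6292 and 5977 genes tested the r was 0.88, 0.87 and 0.90. These describe genes measured on arrays from the same numbered experiments. The r of the proteasome genes lies close to that of all genes. Their overlap shares differ from those of all genes, above them in some lists and below them in others.

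Between lines, 8 proteasome genes were lowered by rapamycin alone in both C5.2 and SKBR3, 88.9% of the 9 and 57.1% of the 14, with PSMB5 the C5.2 gene outside that overlap. Over the 4978 genes tested in both lines the overlap was 30.9% of the C5.2 calls and 40.6% of the SKBR3 calls. The sizes of the differences had an r of 0.07 over 34 proteasome genes and 0.27 over all genes. Between HB4a and C5.2 the r was 0.79 over 34 proteasome genes and 0.78 over 5579 genes, and between HB4a and SKBR3 0.07 over 35 and 0.17 over 4926.

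**Figure D3:**
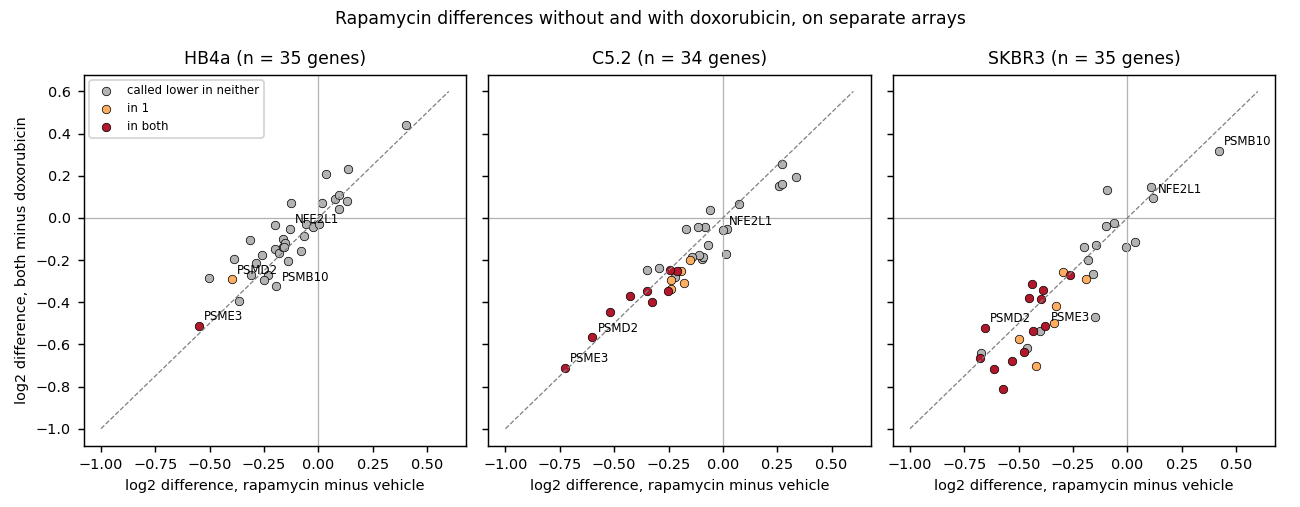
Log2 difference of each tested proteasome gene with rapamycin against vehicle (horizontal) and with both drugs against doxorubicin (vertical) in HB4a, C5.2 and SKBR3; each point is a gene, coloured by the number of these comparisons that called it lower, and the dashed line marks equal differences. Points lie along the diagonal in each line, with r of 0.90, 0.95 and 0.90, and PSMB10 stands to the upper right in SKBR3.

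Over the 6 comparisons that differ by rapamycin, 25 of the 34 proteasome genes tested in all 6 were called lower in at least 1, 15 in at least 2 and 7 in at least 4. These are 73.5%, 44.1% and 20.6%, beside 31.0%, 19.1% and 2.48% of all 4673 genes tested in all 6. PSME3 was lower in all 6 and PSMD2 in 5, missing only HB4a with both drugs against doxorubicin, while PSMA7, PSMB1, PSMB3, PSMB6 and PSMC4 were lower in 4. The 9 lowered in none of the 6 were NFE2L1, PSMA3, PSMC6, PSMD4, PSMD6, PSMD9, PSMD10, PSME1 and PSME4. PSMB10 was tested in 4 of the 6, in HB4a and SKBR3, and lowered in none of those. PSMC6, an ATPase, had differences of -0.67 (SE 0.33) in SKBR3 and 0.41 (SE 0.31) in HB4a and was the most variable gene, with a median SD within groups of 0.58, compared with 0.08 for PSMB4.

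The stretches of 150 bases before the start are shown for the 5 genes with a promoter in the RefSeq table (GRCh38.p14) that illustrate the rapamycin response, PSME3 (chr17:42833247-42833396, plus strand), PSMD2 (chr3:184299091-184299240, plus, the first of 2 starts), PSMB3 (chr17:38752591-38752740, plus), PSMC4 (chr19:39971015-39971164, plus) and PSMD11 (chr17:32444360-32444509, plus), and for PSMB10 (chr16:67936851-67937000, minus), which moved the other way in SKBR3. They read 5′ to 3′, and capitals mark the core of the antioxidant response element, TGACNNNGC, and the CCAAT box, CCAAT, on either strand.
PSME3: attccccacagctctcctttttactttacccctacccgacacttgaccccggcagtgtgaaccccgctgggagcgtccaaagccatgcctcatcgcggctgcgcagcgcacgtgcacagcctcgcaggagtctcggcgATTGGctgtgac
PSMD2: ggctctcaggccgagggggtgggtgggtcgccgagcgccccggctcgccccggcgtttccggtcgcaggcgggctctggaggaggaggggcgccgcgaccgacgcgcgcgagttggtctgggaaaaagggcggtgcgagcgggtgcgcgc
PSMB3: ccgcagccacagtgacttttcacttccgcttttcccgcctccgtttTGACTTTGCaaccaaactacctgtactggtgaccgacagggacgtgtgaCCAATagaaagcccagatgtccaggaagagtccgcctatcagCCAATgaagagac
PSMC4: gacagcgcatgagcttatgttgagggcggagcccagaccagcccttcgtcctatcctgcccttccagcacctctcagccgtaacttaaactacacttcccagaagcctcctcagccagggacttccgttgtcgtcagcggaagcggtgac
PSMD11: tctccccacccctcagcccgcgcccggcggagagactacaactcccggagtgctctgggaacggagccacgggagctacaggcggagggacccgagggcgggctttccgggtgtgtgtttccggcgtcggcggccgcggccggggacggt
PSMB10: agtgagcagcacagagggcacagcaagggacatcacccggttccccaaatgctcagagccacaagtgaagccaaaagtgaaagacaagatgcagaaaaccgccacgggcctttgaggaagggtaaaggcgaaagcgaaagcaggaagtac
In these stretches PSMB3 holds 1 antioxidant core match and 2 CCAAT boxes, PSME3 holds 1 CCAAT box on the reverse strand, and the other 4 hold neither; the PSMC4 core match lies after its start. Over windows of 300 bases, from 250 before to 50 after the start, 31 of the 36 genes had a promoter in the table. TGACNNNGC was found in 8 of 31 (25.8%), compared with 13.6% of 27305 genes, and CCAAT in 14 of 31 (45.2%), compared with 35.7%. Both motifs were searched on both strands and do not contain each other. The 8 with the core were PSMB3, PSMC4, PSMD1, PSMD5, PSMD9, PSMD12, PSME1 and PSME4, of which PSMD9, PSME1 and PSME4 were lowered by rapamycin in none of the 6 comparisons. PSMA7, PSMB1, PSMB6, PSMB7 and PSMD4 were not matched in the table.

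With doxorubicin alone limma called 1 of 35 proteasome genes in SKBR3, 1 of 34 in C5.2 and 2 of 35 in HB4a, each of them higher. Over all genes higher calls also outnumbered lower ones, at 40 and 10, 179 and 26, and 534 and 171. In SKBR3 doxorubicin raised PSMB10 as its 1 of 35, beside 0.669% of all genes called higher. PSMB10 is the inducible subunit that replaces PSMB7 in the immunoproteasome, and it read 5.81, 5.88, 5.81, 5.54 and 5.52 in vehicle and 6.52, 6.52, 6.55, 6.37 and 6.17 with doxorubicin. All doxorubicin arrays lay above all vehicle arrays (difference 0.72, SE 0.11, adjusted p = 0.00127, limma), a fold change of 1.64. Rapamycin alone gave 6.36, 5.86, 6.42, 6.09 and 5.92, with 1 array inside the vehicle range (difference 0.42, SE 0.11, adjusted p = 0.0138). With both drugs it read 6.73, 6.68, 6.78, 6.69 and 6.84, above every array of the other 3 SKBR3 groups, at 1.03 over vehicle (SE 0.11, adjusted p = 2.84e-06) and 0.62 over rapamycin (SE 0.11, adjusted p = 0.00790). In SKBR3 both drugs against rapamycin gave PSMB10 as the 1 gene called higher of 35, beside 0.552% of all genes, and a fit of only the arrays compared did not call it (adjusted p = 0.0767). PSMB10 in HB4a differed by 0.10 (SE 0.18) with doxorubicin, -0.19 (SE 0.18) with rapamycin and -0.23 (SE 0.18) with both drugs, none past the threshold.

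In C5.2 doxorubicin raised 1 of 34 proteasome genes, PSME1, beside 2.84% of all genes called higher. PSME1 encodes an alpha subunit of the interferon-inducible activator PA28, and read 9.17, 9.38, 9.15, 9.12 and 9.27 in vehicle and 9.65, 9.5, 9.54, 9.34 and 9.55 with doxorubicin, with an overlap of a single pair of arrays (difference 0.30, SE 0.08, adjusted p = 0.0319). It was also the 1 gene called higher with both drugs against rapamycin in C5.2 (difference 0.26, SE 0.08, adjusted p = 0.0430), beside 4.82% of all genes. The first call was lost without any 1 of the arrays of these 2 groups other than doxorubicin 2, doxorubicin 4 and vehicle 2, and the second without any 1 other than array 4 with both drugs and rapamycin 2; median centring, quantile normalization, the absence of a filter and a fit of only the arrays compared each ended both calls. The experiment block called 4 and 3 genes, each of them higher and PSME1 among both. It called 17.4% and 22.2% of all genes in either direction. The PSME1 difference with doxorubicin was 0.33 (SE 0.12, adjusted p = 0.0672) in HB4a and 0.23 (SE 0.10, adjusted p = 0.525) in SKBR3.

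In HB4a doxorubicin raised 2 of 35 proteasome genes, the beta subunits PSMB2 and PSMB4, beside 8.66% of all genes called higher. PSMB2 read 9.94, 10.05, 9.83, 9.88 and 9.95 in vehicle and 10.14, 10.32, 10.10, 10.20 and 10.19 with doxorubicin, without overlap (difference 0.26, SE 0.07, adjusted p = 0.0255), and PSMB4 differed by 0.25 (SE 0.08, adjusted p = 0.0379). PSMB4 was the 1 gene called higher with both drugs against rapamycin (difference 0.27, SE 0.08, adjusted p = 0.0269), beside 5.66% of all genes. PSMB5, PSMB6 and PSMB7 differed by 0.24, 0.17 and 0.27 with doxorubicin and did not pass the limma test, nor did POMP at 0.00 (SE 0.14). With the experiment block 8 genes were called higher, PSMB5 and PSMB7 among them, beside 32.7% of all genes called in either direction. The count for doxorubicin was 0 without HB4a doxorubicin 2, 4 or 6 or vehicle 1, 3 or 4, 1 without doxorubicin 3 and 4 without doxorubicin 1, and median centring gave 0 while a fit of only the arrays compared gave 5, beside 8.39% and 14.4% of all genes. For both drugs against rapamycin it was 0 without HB4a arrays 2, 3 or 6 given both drugs or rapamycin 1 or 3, and 4, 5 and 2 without array 1 given both drugs, rapamycin 2 and rapamycin 4.

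Both drugs together against vehicle gave 14 proteasome genes lower and 2 higher of 35 in SKBR3, beside 13.6% of all genes lower and 8.35% higher. The risers were PSMB10 and PSME1, which read 8.70, 9.04, 8.97, 9.01 and 9.01 in vehicle and 9.20, 9.42, 9.44, 9.07 and 9.48 with both drugs, without overlap (difference 0.38, SE 0.10, adjusted p = 0.00788). PSMD14 and PSMD11 were lower by -0.71 (SE 0.16) and -0.59 (SE 0.13), PSMD2 by -0.49 (SE 0.07, adjusted p = 3.83e-05), POMP by -0.40 (SE 0.08) and PSMB6 by -0.29 (SE 0.09). PSMB6 lost its call without vehicle 1 (adjusted p = 0.0601) or array 3 given both drugs (adjusted p = 0.0646), with quantile normalization (adjusted p = 0.101) and without the wider set (adjusted p = 0.123, or 0.0607 with SKBR3 vehicle 3 kept). PSMB5 and PSMB7 differed by 0.00 (SE 0.07) and -0.13 (SE 0.08) and were not called. The experiment block gave 24 lower and 3 higher, beside 50.5% of all genes called in either direction. The count was 10 without SKBR3 array 3 given both drugs or without vehicle 1. Without the wider set it was 8, or 11 with SKBR3 vehicle 3 kept, beside 11.5% and 16.7% of all genes called in either direction.

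In C5.2 both drugs lowered 6 of 34, beside 14.6% of all genes, namely PSMA5, PSMA7, PSMB5, PSMC4, PSMD2 and PSME3. PSME3 read 6.29, 6.09, 6.09, 6.21 and 6.53, below every vehicle array (difference -0.67, SE 0.10, adjusted p = 1.47e-04), and PSMB5 differed by -0.27 (SE 0.07, adjusted p = 0.0107), PSMB6 by -0.28 (SE 0.10, adjusted p = 0.0598). The PSMB5 call was lost with quantile normalization (adjusted p = 0.0899). Without C5.2 array 2 given both drugs 10 genes were called, and without the wider set 8 lower and 2 higher, the latter beside 28.3% of all genes called in either direction. PSMC4, at -0.39 (SE 0.12, adjusted p = 0.0293), was not called without array 3 or 4 given both drugs or vehicle 2, 4 or 6 (adjusted p = 0.0624 to 0.0854), with no filter (adjusted p = 0.0602) or with quantile normalization (adjusted p = 0.106). In HB4a both drugs lowered 2 of 35, PSME3 (difference -0.56, SE 0.12, adjusted p = 0.00241) and PSMA7 (difference -0.17, SE 0.06, adjusted p = 0.0340), beside 6.49% of all genes. The PSME3 groups did not overlap and the PSMA7 groups did. The HB4a count was 1 without arrays 2, 4 or 6 given both drugs, without vehicle 1, 2, 4 or 6, or with no filter. With no filter 7.34% of all genes were called in either direction.

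The test of the difference between lines asks whether a treatment moved a gene by a different amount in SKBR3 or C5.2 than in HB4a. For both drugs, 2 of 35 proteasome genes differed between SKBR3 and HB4a, beside 9.82% of all 7270 genes tested. PSMB10 responded by 1.26 more in SKBR3 (SE 0.21, adjusted p = 7.19e-05, limma), and PSMD2 by -0.39 (SE 0.11, adjusted p = 0.0175), falling further there. The PSMD2 difference was not called with median centring (adjusted p = 0.0636), quantile normalization (adjusted p = 0.105) or without the wider set (adjusted p = 0.0681), but was called with SKBR3 vehicle 3 kept. For rapamycin alone limma called 0 of 35 proteasome genes, beside 5.03% of all genes called. An unadjusted p below 0.05 was reached by 7 of the 35 and by 1230 of all 7270 genes. Without HB4a rapamycin 2 limma called 1 proteasome gene. The experiment block called 7 of the 35, beside 22.5% of all genes. These were PSMB10, higher, and POMP, PSMA7, PSMB1, PSMC6, PSMD2 and PSMD14, lower in SKBR3. For doxorubicin alone limma called 0, beside 3.87% of all genes. An unadjusted p below 0.05 was reached by 3 of the 35 and by 1038 of all 7270 genes. The block called PSMB10, beside 15.9% of all genes. Between C5.2 and HB4a limma called 0 of 35 for each treatment. For doxorubicin, rapamycin and both drugs it called 0.101%, 0% and 0.373% of all 6962 genes tested. An unadjusted p below 0.05 was reached by 0, 1 and 4 of the 35, and by 238, 356 and 669 of all genes.

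In vehicle the largest differences between lines were in SKBR3. Against HB4a 12 of 35 proteasome genes were lower and 7 higher, beside 39.7% of all genes lower and 37.6% higher. After median centring, which moved the median of all genes by 0.25, the split was 8 lower and 13 higher, and 10 of the 35 differences changed sign. That fit called 76.5% of all genes in either direction. The constitutive beta ring was called lower for 6 of 7 subunits, and for 3 of 7, PSMB2, PSMB3 and PSMB6, after median centring, which turned PSMB1, PSMB4 and PSMB7 to 0.05, 0.07 and 0.06. The largest differences in the ring were PSMB6 at -1.33 (SE 0.08, adjusted p = 2.57e-17), PSMB3 at -1.31 (SE 0.09) and PSMB2 at -1.02 (SE 0.09). PSMB6 read 9.69, 9.82, 9.69, 9.63 and 9.83 in HB4a, far above the SKBR3 vehicle values. PSMB5 was lower by -0.28 (SE 0.09, adjusted p = 0.00358), a call lost with median centring (adjusted p = 0.537), and PSMB7 differed by -0.16 (SE 0.09, adjusted p = 0.102). PSMD11 read 8.69, 8.69, 8.47, 8.36 and 8.46 in HB4a and was lower in SKBR3 by -1.73 (SE 0.13, adjusted p = 9.41e-15), and PSME3 was lower by -1.11 (SE 0.11).

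PSME4, PSMA1 and PSMC1 were the genes with the largest higher values in SKBR3 vehicle. PSME4, the activator PA200, read 5.74, 4.36, 5.01, 4.43 and 4.66 in HB4a and 6.80, 5.99, 6.45, 6.58 and 6.40 in SKBR3, with no overlap (difference 1.60, SE 0.30, adjusted p = 9.42e-06). All 3 of its probe sets were higher there. The probe sets not chosen had vehicle means below log2 5, at 1.75 and 1.10 in HB4a and 4.60 and 2.44 in SKBR3. PSMA1, of the alpha ring, was higher by 0.89 (SE 0.16), PSMC1, a 19S ATPase, by 0.84 (SE 0.17) and POMP by 0.43 (SE 0.12, adjusted p = 0.00136). Of the members on chromosome 17 in the RefSeq table, NFE2L1, PSMB3, PSMD11 and PSME3 were lower and PSMD12 higher, with a median of -1.31, compared with a median of -0.29 and 48.5% lower calls over the 361 genes tested on that chromosome. The part of chromosome position in these differences was not tested.

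NFE2L1 was lower on every SKBR3 vehicle array than on any HB4a one, and limma called it in no treatment comparison without the experiment block. It read 7.17, 7.35, 7.46, 7.55 and 7.5 in HB4a, 7.25, 7.36, 7.70, 7.76 and 7.72 in C5.2 and 5.59, 5.77, 5.93, 5.89 and 5.69 in SKBR3. The SKBR3 arrays lay more than a log2 unit below those of HB4a, without overlap, at a difference of -1.63 (SE 0.12, adjusted p = 8.09e-15), and the other probe sets gave -1.68 and -1.74. C5.2 differed from HB4a by 0.15 (SE 0.13, adjusted p = 0.353). Rapamycin against vehicle gave NFE2L1 differences of -0.13 (SE 0.14) in HB4a, 0.00 (SE 0.13) in C5.2 and 0.12 (SE 0.10) in SKBR3, and both drugs gave 0.07 (SE 0.14), 0.01 (SE 0.13) and 0.27 (SE 0.10), none past the limma threshold, the last with an adjusted p of 0.0654. With the experiment block that last difference was called (SE 0.08, adjusted p = 0.00816), beside 50.5% of all genes called in either direction.

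**Figure D4:**
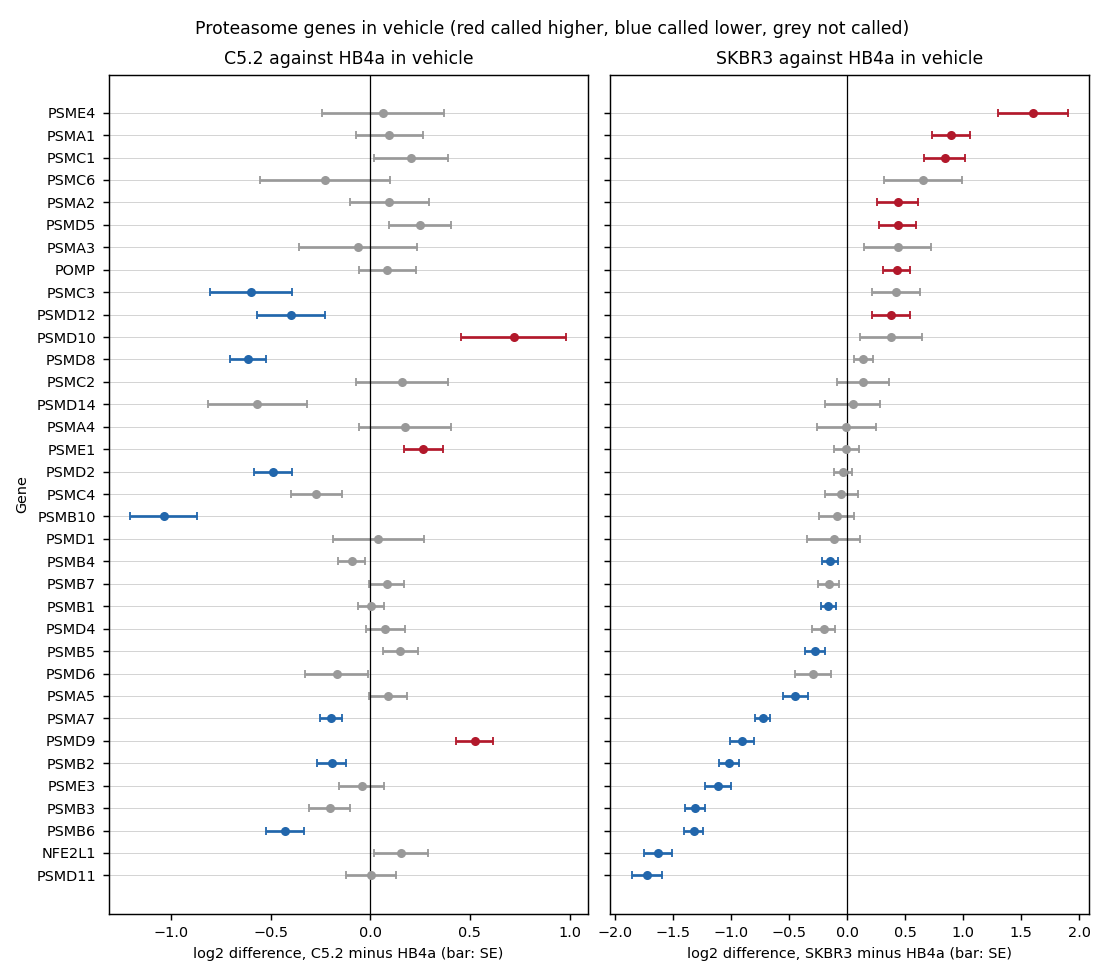
Log2 difference of each tested proteasome gene in vehicle for C5.2 and for SKBR3 against HB4a; points are genes with bars of 1 SE, ordered by the SKBR3 difference, red where called higher, blue where called lower and grey otherwise. SKBR3 differences reach -1.73 for PSMD11 and 1.60 for PSME4, and those of C5.2 reach 0.72 for PSMD10; the lowest C5.2 point, PSMB10, passed the filter through HB4a.

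In C5.2 vehicle 8 of 35 proteasome genes were lower and 3 higher than in HB4a, beside 19.9% of all genes lower and 29.3% higher. With quantile normalization, which moved the median of all genes by -0.11, the split was 10 lower and 1 higher, beside 49.2% of all genes called in either direction. One of the 8, PSMB10, entered that test through its HB4a arrays and is described without it, which leaves 7. PSMB10 read 5.71, 5.93, 5.60, 5.90 and 5.87 in HB4a and 4.53, 5.38, 4.5, 4.67 and 4.75 in C5.2, and 2 of the 20 C5.2 arrays lay above log2 5. PSMD8, of the 19S lid, was lower by -0.62 (SE 0.09, adjusted p = 3.29e-07), PSMC3 by -0.60 (SE 0.20), PSMD2 by -0.49 (SE 0.09) and PSMB6 by -0.43 (SE 0.09). The chaperones PSMD10, also known as gankyrin, and PSMD9 were higher by 0.72 (SE 0.26, adjusted p = 0.0229) and 0.52 (SE 0.09, adjusted p = 1.05e-05), and PSME1 by 0.26 (SE 0.10, adjusted p = 0.0245). PSMD10 was not called without C5.2 vehicle 1 or HB4a vehicle 2 or 6 (adjusted p = 0.0527 to 0.0893), from the mean of all probe sets (adjusted p = 0.0938) or with quantile normalization (adjusted p = 0.0548). PSME1 was not called without C5.2 vehicle 2 or HB4a vehicle 1 or 3 (adjusted p = 0.0511 to 0.0733), with median centring (adjusted p = 0.0525) or with quantile normalization (adjusted p = 0.177). PSMB5, PSMB7 and POMP, at 0.15 (SE 0.09), 0.08 (SE 0.09) and 0.09 (SE 0.14), were not called.

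Other genes of the pathway were read from lists of factors that act beside the members, and their counts stand beside lower calls with rapamycin for 10.8%, 14.6% and 1.10% of all genes in SKBR3, C5.2 and HB4a. Among 12 further assembly chaperones and associated proteins, rapamycin lowered 2 in SKBR3, PSMG1 (difference -0.53, SE 0.13) and PSMG3 (difference -0.35, SE 0.08), both chaperones of the alpha ring, and 1 in C5.2, PSMG1 (difference -0.42, SE 0.10). Of 8 NFE2L1 maturation factors and partners tested in SKBR3, 2 were lowered, UFD1 (difference -0.44, SE 0.09) and VCP (difference -0.33, SE 0.08), which extract NFE2L1 from the endoplasmic reticulum membrane. MAFF, a small partner protein of NFE2L1, rose with rapamycin in HB4a by 1.37 (SE 0.14, adjusted p = 3.76e-06) and in C5.2 by 1.15 (SE 0.10, adjusted p = 3.84e-07), where NFE2L3 rose as well. UBB, a ubiquitin gene and 1 of 2 tested from that list, fell with rapamycin in SKBR3 (difference -0.30, SE 0.04, adjusted p = 1.74e-05), and 2 of 5 heat shock chaperones fell there, HSPH1 (difference -0.90, SE 0.22) and HSP90AA1 (difference -0.81, SE 0.18). In C5.2 2 of 5 fell, BAG3 (difference -0.27, SE 0.07) and DNAJB1 (difference -0.48, SE 0.13), and in HB4a 1 of 5, HSPB1 (difference -0.58, SE 0.12).

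Among targets of NFE2L2, the factor related to NFE2L1, 5 of 6 tested were higher in C5.2 vehicle than in HB4a, beside 29.3% of all genes. HMOX1, heme oxygenase, was higher by 3.24 (SE 0.13) and TXNRD1, thioredoxin reductase, by 2.24 (SE 0.29). In SKBR3 vehicle 2 of 6 were higher and 2 lower, beside 37.6% and 39.7% of all genes, with HMOX1 at -1.11 (SE 0.13) and SRXN1 at 0.88 (SE 0.08). Of these 6, 5 passed the filter on the SKBR3 arrays alone. The remaining target entered through its HB4a arrays, which favours a lower value in SKBR3, so the count of lower calls is limited by the filter. Rapamycin lowered 1 of 6 in HB4a and 1 of 6 in C5.2, HMOX1 in each (difference -0.65, SE 0.16, adjusted p = 0.0259 in HB4a; difference -0.50, SE 0.10, adjusted p = 0.00277 in C5.2). In SKBR3 it lowered 2 of 5, GCLM (difference -0.39, SE 0.13) and SRXN1 (difference -0.23, SE 0.07).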

How the data were processed

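The deposited table holds log2 signals of 54675 probe sets on 60 arrays, which the authors computed with RMA, per the submitters' processing notes; version, annotation and whether all arrays were run together are not given in the sources used here. Array medians lay between 1.41 and 1.71, and the number of arrays limits the precision. Probe sets were named from the platform annotation: 41091 had 1 symbol and 1801 several, and 62 controls were left out. Groups were read from the source names, because the titles call the vehicle arrays by an abbreviation that the treatment protocol uses for the combination. That protocol also writes the doses in another unit than the nM of the source names, which was used.

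Each gene was read from its probe set with the highest mean over all arrays, and genes above log2 5 on at least 5 arrays of a fit entered linear models (limma 3.58.1, R 4.3.3: lmFit, contrasts.fit and eBayes with trend, 2-sided, Benjamini-Hochberg over all genes tested). Fits used the 20 arrays of a line or the 40 of 2 lines, and differences in response are contrasts in the latter. On simulated data for HB4a rapamycin against vehicle, the fit found 94.2% of 103 genes changed by 1 on the log2 scale, 37.5% of 96 changed by 0.5, and 3 of 5895 left alone. The simulated noise was independent between genes and arrays, whereas same-numbered real arrays of this comparison deviated together (r of 0.461 to 0.893). These rates therefore need not hold for the real arrays. Nothing in the labels says that the experiments were separate cultures beyond calling them independent, so p-values measure the spread between these arrays.

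Same-numbered arrays deviated together, with every pair's correlation over 0.1, in HB4a doxorubicin and rapamycin against vehicle, in the C5.2 comparisons other than both drugs against vehicle, and in all SKBR3 comparisons; the lowest correlations were 0.428, 0.105 and 0.238 in the 3 lines. Alternatives were another filter, probe set rule, centring, quantile normalization, the experiment block, fewer arrays in the fit, and arrays left out. Full values were given for NFE2L1, POMP, PSMB5, PSMB6 and PSMB7 and for up to 3 called genes in each direction with the largest difference whose groups did not overlap (5 for lines in vehicle); other genes named were picked after their values were seen. The genes and lists were chosen with earlier results of these data known.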

Additional observations from a re-analysis of the deposited data

Results flagged for a closer look

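The responses to both drugs differed between SKBR3 and HB4a for PSMB10, by 1.26, and for PSMD2, by -0.39, in the test of the difference itself.

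A single array lay far from the other 4 of its group in 16 of 264 pairs of gene and group among the 22 genes whose values the text turns on, which is 6.06%, while chance gives about 1 in 20. Experiment 1 of HB4a held 4 of these at the high end, PSMA1 at 9.31 and PSMD14 at 8.81 with rapamycin, and PSMD1 at 7.99 and PSME4 at 6.16 with both drugs, and 1 at the low end, PSMB3 at 10.38 with doxorubicin. HB4a rapamycin 4 had PSMD11 at 7.56, lower than the rest. In C5.2 experiment 2, PSMB10 at 5.38 and PSMB7 at 9.99 were high in vehicle, PSMD10 at 6.58 and PSME4 at 4.76 were low with rapamycin, and NFE2L1 at 7.22 was low with both drugs. In SKBR3 the values were PSME1 at 8.70 in vehicle 1 and NFE2L1 at 5.83 in array 1 with both drugs, both low, PSMD9 at 6.08 and PSME4 at 6.83 in array 4 with both drugs, and PSMB3 at 8.94, high, in array 6 with both drugs. HB4a experiment 1 and rapamycin 4, C5.2 experiment 2 and SKBR3 experiment 1 are among the wider set of arrays left out as a check; the part this plays in the values was not tested.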

How the results depend on the processing

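The alternatives were recomputed for the called genes picked by the naming rule: of these single-gene results 960 stayed on their side of the threshold, 65 lost their call and 0 reversed. Among other called genes, median centring turned PSMB1 and PSMB4 in SKBR3 against HB4a in vehicle, to 0.05 and 0.07. The call lost most often, under 10 of the alternatives, was PSMB7 with both drugs against doxorubicin in C5.2. The counts below are proteasome genes called in either direction. The cause of the changes was not tested, apart from leave-one-out fits, which hold fewer arrays. The number of arrays limits what can be called: small differences near 0.2 passed in the least variable genes and missed in the others, and levels close to log2 5, as for PSMB10 in C5.2 and PSME4 in HB4a, lie near the edge of what was tested.

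With the experiment number as a replicate block, SKBR3 gave 25 for rapamycin against vehicle, 27 for both drugs against vehicle, 28 for both against doxorubicin, 2 for doxorubicin and 3 for both against rapamycin. In the same order the block called 41.8%, 50.5%, 49.6%, 5% and 6.64% of all genes. C5.2 gave 18 for rapamycin, 15 for both against vehicle, 4 for doxorubicin and 3 for both against rapamycin, beside 44.2%, 43.3%, 17.4% and 22.2% of all genes. HB4a gave 8 for doxorubicin, 8 for rapamycin, 6 for both against vehicle, 8 for both against doxorubicin and 8 for both against rapamycin. The shares of all genes there were 32.7%, 16.3%, 37.4%, 15.8% and 28.4%. Differences in response between SKBR3 and HB4a gave 7 for rapamycin, 12 for both drugs and 1 for doxorubicin, beside 22.5%, 31.9% and 15.9% of all genes. Those between C5.2 and HB4a gave 1 for both drugs, beside 10% of all genes. In HB4a comparisons with both drugs the lowest pair correlation was -0.57, and for C5.2 both against vehicle -0.10, so the numbers were not taken to pair the arrays there. Of the 5 HB4a arrays with both drugs 3 correlated best with their own number in each other HB4a group, and arrays 2 and 3 with each other's number; whether these labels were exchanged was not tested. The block changed the line comparisons in vehicle by less than 1.5 times.

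With median centring the count was 0 for doxorubicin and for both against rapamycin in both HB4a and C5.2, and 1 for the difference in the response to both drugs between SKBR3 and HB4a. The shares of all genes called were 8.39% and 7.05% in HB4a, 2.4% and 6.72% in C5.2, and 8.61% for that difference. From the mean of all probe sets HB4a gave 0 for doxorubicin and 0 for both against doxorubicin, beside 12.6% and 3.34% of all genes. With no filter C5.2 gave 8 for both against doxorubicin, 0 for both against rapamycin and 0 for doxorubicin, and HB4a gave 0 for both against doxorubicin, 0 for both against rapamycin, 1 for both against vehicle and 1 for doxorubicin. The shares of all genes, in the same order, were 3.09%, 2.3% and 1.22% in C5.2 and 0.718%, 2.99%, 7.34% and 4.4% in HB4a. With only the arrays compared C5.2 gave 5 for both against doxorubicin, 0 for both against rapamycin and 0 for doxorubicin, HB4a gave 0 for both against rapamycin, 5 for doxorubicin and 0 for rapamycin, and SKBR3 gave 0 for both against rapamycin. The shares of all genes were 6.64%, 4.76% and 1.18% in C5.2, 3.49%, 14.4% and 1.88% in HB4a, and 0.165% in SKBR3. With quantile normalization C5.2 gave 5 for both against doxorubicin, 0 for both against rapamycin, 0 for doxorubicin and 5 for rapamycin, HB4a gave 2 for both against doxorubicin, 3 for both against rapamycin, 1 for doxorubicin and 4 for rapamycin, and the differences in response between SKBR3 and HB4a gave 1 each for doxorubicin and rapamycin. The shares of all genes were 7.3%, 6.87%, 3.03% and 11.6% in C5.2 and 3.48%, 10.3%, 10.3% and 3.93% in HB4a. For the differences in response they were 3.86% and 5.71%. Without the wider set of arrays C5.2 gave 10 for both against vehicle, HB4a 4 for doxorubicin and 1 for rapamycin, SKBR3 8 for both against vehicle and 8 for rapamycin, and the difference in the response to both drugs 1. The shares of all genes were 28.3% in C5.2, 25.1% and 2.88% in HB4a, 11.5% and 13.7% in SKBR3, and 9.13% for that difference. With SKBR3 vehicle 3 kept, an alternative chosen after seeing the data, the SKBR3 counts were 11 and 13, within 1.5 times the reported ones. All-gene shares there were 16.7% and 17.5%.

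Leaving out 1 array at a time gave 6 to 14 calls in C5.2 for both against doxorubicin, 0 to 1 for both against rapamycin, 5 to 10 for both against vehicle and 0 to 1 for doxorubicin. HB4a gave 0 to 1 for both against doxorubicin, 0 to 5 for both against rapamycin, 1 to 3 for both against vehicle, 0 to 4 for doxorubicin and 1 to 4 for rapamycin. SKBR3 gave 10 to 21 for both against vehicle, 10 to 17 for rapamycin and 15 to 21 for both against doxorubicin, and the difference from HB4a in the rapamycin response gave 0 to 1. The share of all genes called was not computed for these leave-one-out fits, so a loss of calls particular to the proteasome genes cannot be read from them.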

Other observations

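The proteasome genes fell into those with tight and those with wide spreads between arrays of a group. The median SD within groups ran from 0.08 for PSMB4 to 0.58 for PSMC6, with PSMA3 at 0.41. PSMA3, of the alpha ring, differed with rapamycin by -0.46 (SE 0.22) in SKBR3, 0.26 (SE 0.25) in C5.2 and 0.14 (SE 0.31) in HB4a, and was called in no treatment comparison.

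The mean of the proteasome genes on each array gives the level of the group as a whole. In SKBR3 it ran from 7.94 to 8.33 in vehicle, 8.10 to 8.40 with doxorubicin, 7.66 to 7.95 with rapamycin and 7.77 to 7.95 with both drugs. In C5.2 it ran from 8.12 to 8.25 in vehicle and from 7.87 to 8.11 with rapamycin, and in HB4a from 8.15 to 8.40 and from 7.93 to 8.33. The ranges of vehicle and rapamycin did not overlap in C5.2, overlapped by a single pair of arrays in SKBR3 and overlapped in HB4a. With both drugs the range was 7.73 to 8.14 in C5.2 and 8.08 to 8.42 in HB4a, each overlapping that of vehicle. The median difference over all genes tested with rapamycin was -0.08 in C5.2, -0.03 in SKBR3 and 0.01 in HB4a.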
